A study of Arabidopsis thaliana x Arabidopsis lyrata and Arabidopsis thaliana x Arabidopsis halleri with 18 samples.

Results

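*FUM1* (AT2G47510) and *FUM2* (AT5G50950) are the fumarase genes of *Arabidopsis thaliana*, and they make up 2 of the 16419 genes measured here. They were chosen by their transcript rows in the allele files of 18 F1 hybrid plants. *FUM2* was picked because its allele ratio differed between stressed and standard Colxhalleri plants. Its values in Colxhalleri plants are therefore given as a description with no test, whereas *FUM1* in both hybrids and *FUM2* in ColxMN47 plants were tested. The *FUM1* row in the files is transcript AT2G47510.1. The transcript named for *FUM2* was AT5G50950.1, and the row used at that locus is AT5G50950.2.

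RNA was sequenced from the aerial part of 1 plant per library. All plants carried 1 genome of *A. thaliana* Col-0 and were 4 weeks old. All had 5 days of stratification and a cycle of 16 h light and 8 h dark. ColxMN47 plants had *Arabidopsis lyrata* MN47 as the other parent, and Colxhalleri plants had *Arabidopsis halleri* (ecotype label Col-0xh2.2). In each hybrid, 3 plants were kept for 1 h at 4 °C in dim light (cold), 3 were left to dehydrate for 1 h at 22 °C in dim light (dehydration), and 3 stayed at 22 °C without treatment (standard). Dim light thus went with both treatments, and the standard samples were described as leaves, so neither can be told apart from the treatments.

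Fumarase interconverts malate and fumarate. *FUM1* encodes the mitochondrial enzyme of the citric acid cycle, which the plant cannot do without. *FUM2* encodes the cytosolic enzyme, which makes the fumarate that *Arabidopsis* leaves store by day alongside starch, and which is known for a part in acclimation to low temperature. In an F1 hybrid both parental alleles share a nucleus, so their transcript levels are compared under shared conditions.

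In the TAIR10.1 annotation *FUM1* lies on the plus strand of chromosome 2 from base 19498229 to 19502488, with 18 exons in the transcript counted. *FUM2* lies on the plus strand of chromosome 5 from base 20729431 to 20733941, with 17 exons. No annotated gene overlapped either locus. The coding sequences are 1479 and 1500 bases long for *FUM1* and *FUM2*, and 1318 of 1479 aligned bases (89.1%) were identical. Reads from stretches that the paralogs share cannot be placed on 1 gene, so the division of reads between the fumarases is uncertain to that extent. The sources used here do not say how the authors treated such reads.

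The 250 bases before the annotated start of *FUM2* are shown because the allele ratio of this gene is the subject of most of what follows. The *A. thaliana* sequence is from RefSeq, TAIR10.1, chr5:20729181-20729430, plus strand, and the corresponding bases of the other parents were not used here. Capitals mark the only match to a motif searched, the evening element core AATATCT, read on the opposite strand 114 to 120 bases before the start.
FUM2 upstream: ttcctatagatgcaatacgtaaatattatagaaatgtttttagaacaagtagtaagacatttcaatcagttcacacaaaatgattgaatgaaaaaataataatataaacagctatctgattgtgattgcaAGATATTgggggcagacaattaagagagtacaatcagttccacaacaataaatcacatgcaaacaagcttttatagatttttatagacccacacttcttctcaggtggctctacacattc
The evening element core AATATCT was found on either strand in 2745 of 27443 upstream windows of the same length before protein-coding genes. The core CCGAC of the dehydration-responsive or C-repeat element was found in 3285 of these windows, and the core ACGTG of the abscisic acid response element in 6288 (22.9%). Neither had a match in the window of *FUM1* or *FUM2*, and AATATCT had none in that of *FUM1*. The window of *FUM1* is not printed because only 39 bases separate that gene from its upstream neighbour AT2G47500.

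Library totals in the files ranged from 1524104 to 1531268, since the authors had brought all libraries to about the same sum. In 5 libraries, all from dehydrated plants, missing steps in the whole numbers implied original totals between 927754 and 1427160 reads. The exact depth of the others is unknown, so no counting interval is given. Before the fits, 3 libraries were set apart as unlike the rest. They were standard plant 1 and dehydration plant 2 of ColxMN47 and cold plant 1 of Colxhalleri. No measure of this likeness is given here. The thaliana allele took 61.03% of dehydration plant 2 of ColxMN47. The second allele was headed *A. halleri* in all 9 ColxMN47 files and *A. lyrata* in all 9 Colxhalleri files, against the sample labels, so it is called the second allele here. Of 5 leaf markers, 3 were in the files, and their summed values were 8651 to 19324 in cold, 26053 to 36186 in dehydrated and 19740 to 64580 in standard libraries. The 5 root markers found (of 6) summed to 12 to 148, 22 to 51 and 35 to 78, and the 4 floral markers found (of 5) to 0 to 12, 0 to 2 and 5 to 42 in cold, dehydrated and standard libraries, with the floral regulator *AP1* at 0 throughout. The part of these differences in the fumarase values was not tested. In whole-shoot RNA, fewer cells of a type and less RNA per cell cannot be told apart.

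In Colxhalleri plants the thaliana allele of *FUM2* was low under standard conditions and high after both stresses, while the second allele was present in every plant. Allele values are scaled read numbers, with the 1 that the authors added to each allele taken off. In cold Colxhalleri plants the thaliana allele of *FUM2* had 41, 83 and 89 reads. In dehydrated Colxhalleri plants it had 52, 127 and 99 reads. In standard Colxhalleri plants it had 9, 2 and 6 reads. All 6 stressed plants lay above all 3 standard plants, with no overlap. The mean was 71.0 ± 26.2 in cold plants and 92.7 ± 37.9 in dehydrated plants, against 5.67 ± 3.51 in standard plants (SD, n = 3 each). These means were 12.5 times (cold) and 16.4 times (dehydration) the standard mean.

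The second allele of *FUM2* differed less between treatments in Colxhalleri plants. It had 51, 188 and 74 reads in cold plants, 100, 190 and 139 reads in dehydrated plants, and 65, 30 and 117 reads in standard plants. Both stress groups overlapped the standard group. The mean was 104 ± 73.4 in cold plants and 143 ± 45.1 in dehydrated plants, against 70.7 ± 43.8 in standard plants (SD, n = 3 each), or 1.48 and 2.02 times the standard mean for cold and dehydration. The thaliana allele thus made up 44.6, 30.6 and 54.6% of *FUM2* reads in the cold plants and 34.2, 40.1 and 41.6% in the dehydrated plants, but 12.2, 6.2 and 4.9% in the standard plants.

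**Figure D1:**
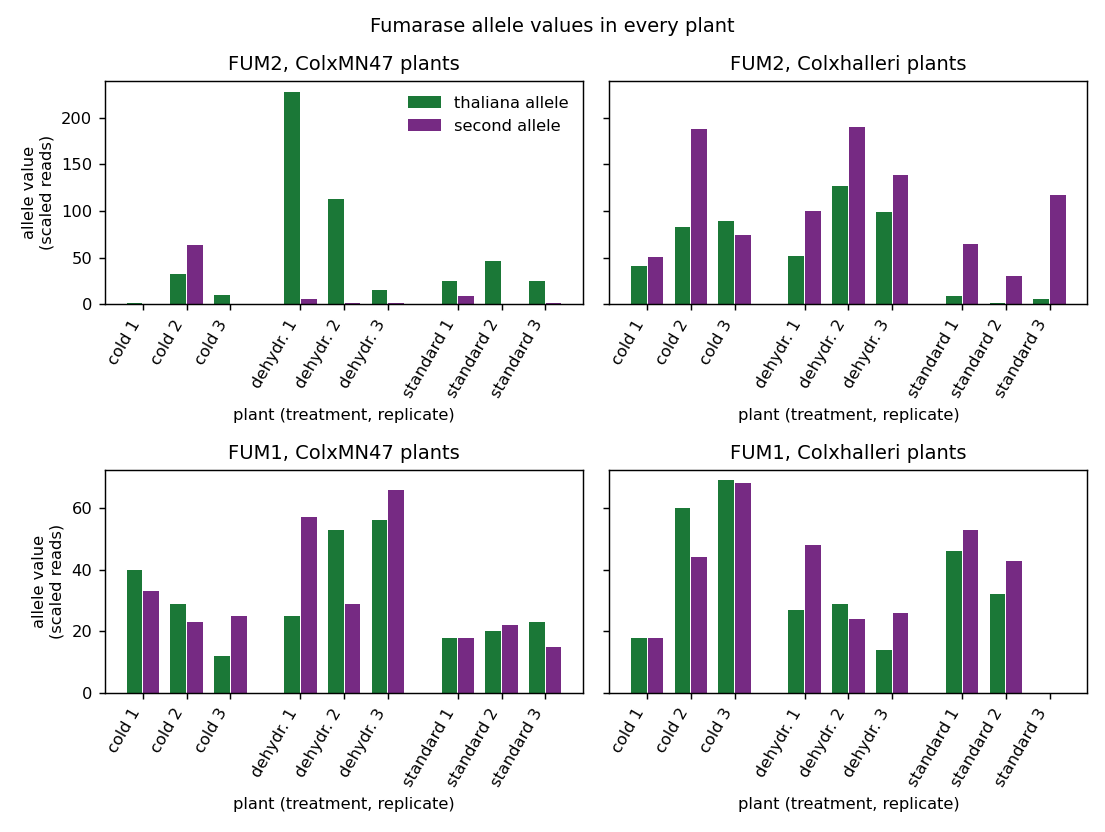
Scaled reads (y axis, linear, from 0; the scale differs between genes) of the thaliana allele (green) and the second allele (purple) of *FUM2* (top) and *FUM1* (bottom) in each plant, 3 per treatment and hybrid. The green *FUM2* bars of Colxhalleri plants stand between 41 and 127 after stress and between 2 and 9 under standard conditions, and the purple *FUM2* bars of ColxMN47 plants exceed 9 in only 1 plant, cold plant 2.

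On the log2 scale, the *FUM2* ratio of second over thaliana allele was 0.31, 1.17 and -0.26 in cold Colxhalleri plants and 0.93, 0.58 and 0.49 in dehydrated Colxhalleri plants, against 2.72, 3.37 and 4.08 in standard Colxhalleri plants. A value of 0 means equal alleles, so the stressed plants lay nearer to equality than the standard plants. Among the stressed plants, cold plant 2 lay farthest toward the second allele, at 1.17. Every stressed plant lay below every standard plant. The mean difference from standard was -2.98 for cold and -2.72 for dehydration, and 0.232% and 0.36% of the 11655 genes compared had a larger absolute difference in cold and dehydration. These are the values for which *FUM2* was chosen. Both comparisons also share the same 3 standard plants. Across that hybrid, limma called the allele ratio of 0.978% of genes changed in the cold and 2.05% under dehydration (adjusted p below 0.05). Averaged over the 9 plants with treatments weighted equally, the *FUM2* ratio in Colxhalleri plants was 1.49, with the second allele higher in 8 of 9 plants and the thaliana allele higher in cold plant 3.

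In ColxMN47 plants the bias of *FUM2* lay toward the other allele, with the thaliana allele the higher in 8 of 9 plants. In cold ColxMN47 plants the thaliana allele of *FUM2* had 1, 33 and 10 reads and the second allele 0, 64 and 0. In dehydrated ColxMN47 plants the thaliana allele had 228, 113 and 15 reads and the second allele 6, 2 and 1. In standard ColxMN47 plants the thaliana allele had 25, 46 and 25 reads and the second allele 9, 0 and 1. The exception was cold plant 2, in which the second allele was the higher and had more reads than in the other 8 plants together. Averaged over treatments, the ratio of second over thaliana allele was -3.05 ± 0.52 on the log2 scale (SE) and differed from 0 (limma, adjusted p = 0.00106). Allele bias was common, with 47.8% of 11697 genes called in ColxMN47 plants and 25.2% called toward the thaliana allele. In size, 1.06% of genes had a larger absolute bias than *FUM2*. The call held in each of 14 other settings, with the bias between -3.45 and -2.67 and adjusted p between 0.000558 and 0.00604.

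**Figure D2:**
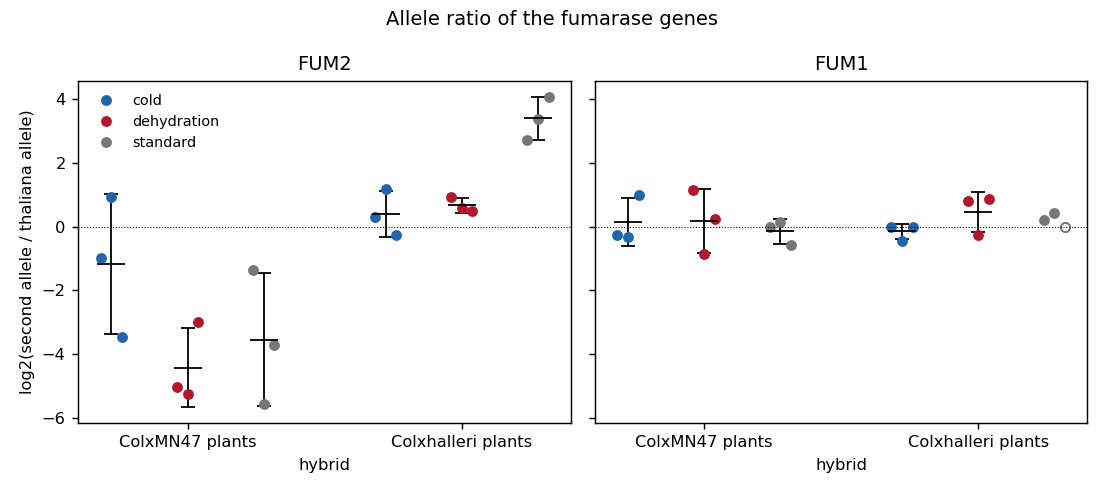
Log2 ratio of second over thaliana allele (y axis) of *FUM2* (left) and *FUM1* (right) per plant in cold (blue), dehydrated (red) and standard (grey) plants of both hybrids; horizontal bars are means and whiskers SD of 3 plants, the dotted line marks equal alleles, and the open point is the plant listed at 0 for both *FUM1* alleles, whose group has no mean drawn. Standard Colxhalleri plants lie between 2.72 and 4.08 for *FUM2*, whereas *FUM1* stays between -0.85 and 1.16 in every plant.

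No change of the *FUM2* allele ratio with stress passed the test in ColxMN47 plants. The log2 ratio was -1.0, 0.93 and -3.46 in cold plants and -5.03, -5.25 and -3.0 in dehydrated plants, against -1.38, -5.55 and -3.70 in standard plants. All 3 groups overlapped. The difference was 2.37 ± 1.28 for cold (SE; limma, adjusted p = 0.578) and -0.88 ± 1.28 for dehydration (limma, adjusted p = 0.808), beside a median over all genes of -0.05 and -0.24 for cold and dehydration. The cold difference rests on low values, since the summed *FUM2* value was 1 in cold plant 1 and 10 in cold plant 3. Both plants were listed at 0 for the second allele, so the added 1 per allele set their ratios. The cold difference was 1.31 without cold plant 2 and 1.36 without standard plant 2. For both treatments, limma called none of the 11697 genes in this hybrid (0%), with 1145 (cold) and 1565 (dehydration) below an unadjusted p of 0.05. Leaving out standard plant 1 turned the dehydration difference to 0.20, and without the 3 libraries unlike the rest it was 0.61.

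*FUM1* showed no allele bias that passed the test in either hybrid. In ColxMN47 plants its thaliana and second alleles had 40 and 33, 29 and 23, and 12 and 25 reads in the cold plants, 25 and 57, 53 and 29, and 56 and 66 reads in the dehydrated plants, and 18 and 18, 20 and 22, and 23 and 15 reads in the standard plants. Each allele was the higher in 4 of these 9 plants, and they were equal in 1. The bias averaged over treatments was 0.06 ± 0.21 on the log2 scale in ColxMN47 plants (SE; limma, adjusted p = 0.846), and 92.3% of genes had a larger absolute bias.

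In Colxhalleri plants the thaliana and second alleles of *FUM1* had 18 and 18, 60 and 44, and 69 and 68 reads in the cold plants and 27 and 48, 29 and 24, and 14 and 26 reads in the dehydrated plants. They had 46 and 53, and 32 and 43 reads in standard plants 1 and 2, and standard plant 3 was listed at 0 for both alleles. That library listed 20 of 4932 well-expressed genes (median of at least 50 over all plants) at 0, within the range of 2 to 33 in the other 17 libraries. The bias of *FUM1* in Colxhalleri plants was 0.17 ± 0.13 (SE; limma, adjusted p = 0.257), where 60.4% of genes were called. The adjusted p was 0.0243 without dehydration plant 2, with a bias of 0.29.

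The *FUM1* allele ratio did not change past the threshold under either stress. In ColxMN47 plants the difference from standard was 0.29 ± 0.52 for cold and 0.33 ± 0.52 for dehydration (SE; limma, adjusted p = 0.893 and 0.825). In Colxhalleri plants it was -0.36 ± 0.31 for cold and 0.26 ± 0.31 for dehydration (SE; limma, adjusted p = 0.594 and 0.678), with the plant listed at 0 entering as equal alleles. In *FUM1* the stressed and standard plants overlapped in each of these comparisons.

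The mean summed level of *FUM2* was highest in stressed Colxhalleri plants. After scaling by trimmed mean factors, the sum of both alleles was 78.5, 300.3 and 157 in cold Colxhalleri plants and 164, 314 and 252 in dehydrated Colxhalleri plants, against 85.6, 28.9 and 109.6 in standard Colxhalleri plants. Dehydrated plants lay above all standard plants, whereas cold plant 1 lay among them. On the log2 scale of the scaled sum plus 2, the mean difference was 1.23 for cold and 1.82 for dehydration. The cold value was 0.67 without standard plant 2 and 0.76 without cold plant 2. These differences follow from the allele values by which *FUM2* was chosen and carry no test.

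In ColxMN47 plants the summed level of *FUM2* varied widely between plants of a group. It was 1.02, 85.4 and 9.27 in cold plants and 252, 115 and 15.3 in dehydrated plants, against 44.0, 43.4 and 26.0 in standard plants. Cold plants 1 and 3 and dehydration plant 3 lay below the standard plants, and the other stressed plants above them. The difference was -1.43 ± 0.98 for cold (SE; limma, adjusted p = 0.522) and 1.04 ± 0.98 for dehydration (SE; limma, adjusted p = 0.6), so neither passed. The sizes rest on single plants. The cold difference was -0.28 without cold plant 1 and -2.73 without cold plant 2, and the dehydration difference was 0.21 without dehydration plant 1 and 2.15 without dehydration plant 3. In these comparisons 0.875% (cold) and 0.426% (dehydration) of 12921 genes were called.

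*FUM1* was higher in each dehydrated ColxMN47 plant than in each standard one, yet the difference did not pass the test across all genes. Its scaled sum was 74.2, 45.8 and 34.3 in cold ColxMN47 plants and 88.2, 81.8 and 117 in dehydrated ColxMN47 plants, against 46.6, 39.6 and 38.0 in standard ColxMN47 plants. The dehydrated mean of 95.7 ± 18.8 was 2.31 times the standard mean of 41.4 ± 4.56 (SD, n = 3 each), and both alleles lay above the standard plants. The log2 difference was 1.16 ± 0.97 for dehydration (SE; limma, adjusted p = 0.551) and 0.24 ± 0.97 for cold (SE; limma, adjusted p = 0.937), and 25.4% of genes had a larger absolute dehydration difference.

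In Colxhalleri plants the scaled sum of *FUM1* was 30.7, 115 and 132 in cold plants and 80.9, 52.5 and 42.3 in dehydrated plants, against 114, 67.8 and 0 in standard plants. Both stress groups overlapped the standard group. The log2 difference was 1.66 ± 0.97 for cold (SE; limma, adjusted p = 0.471) and 1.21 ± 0.97 for dehydration (SE; limma, adjusted p = 0.533), and 0.751% (cold) and 3.03% (dehydration) of all genes were called. The direction rests on standard plant 3: without it the differences were -0.17 for cold and -0.62 for dehydration.

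**Figure D3:**
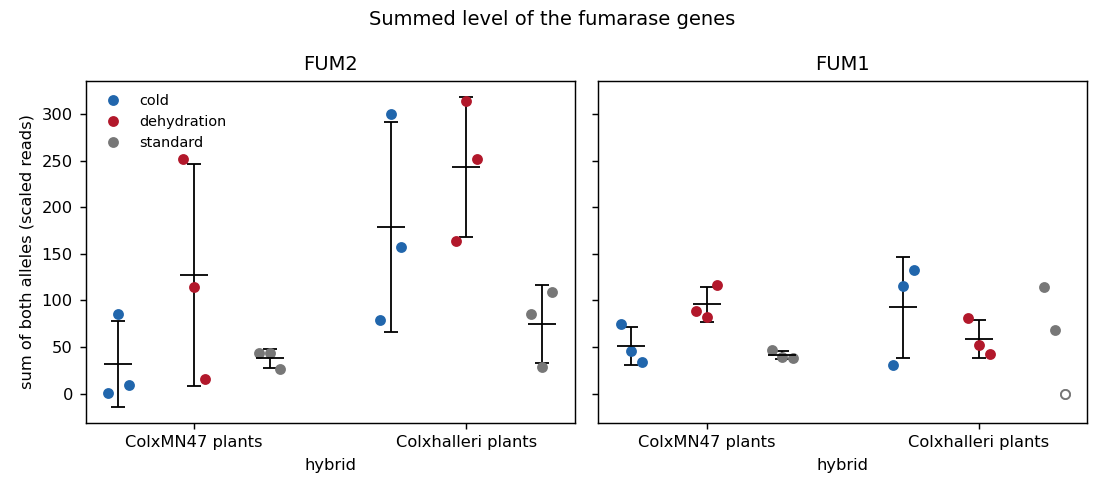
Sum of both alleles in scaled reads (y axis) of *FUM2* (left) and *FUM1* (right) per plant in cold (blue), dehydrated (red) and standard (grey) plants of both hybrids; horizontal bars are means and whiskers SD of 3 plants, and the open point is the plant listed at 0, whose group has no mean drawn. *FUM2* spans 1.02 to 314 and *FUM1* spans 0 to 132, and dehydrated plants lie clear of standard plants for *FUM2* in Colxhalleri and for *FUM1* in ColxMN47.

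By mean scaled sum, the groups of *FUM2* ran from dehydrated Colxhalleri (243 ± 75.5), cold Colxhalleri (179 ± 112) and dehydrated ColxMN47 (127 ± 119) to standard Colxhalleri (74.7 ± 41.4), standard ColxMN47 (37.8 ± 10.2) and cold ColxMN47 (31.9 ± 46.5, SD, n = 3 each). Plants of neighbouring groups in this order overlapped in every case. Per kilobase of transcript, *FUM2* averaged 86.7 ± 54.6 in cold, 118 ± 36.6 in dehydrated and 36.2 ± 20.1 scaled reads in standard Colxhalleri plants. *FUM1* averaged 41.6 ± 24.4 per kilobase in cold and 26.3 ± 9.0 in dehydrated Colxhalleri plants, and ranged from 0 to 51.3 in standard ones. In ColxMN47 plants, *FUM2* averaged 15.5 ± 22.6 in cold, 61.7 ± 57.6 in dehydrated and 18.3 ± 5.0 in standard plants, beside 23.1 ± 9.2, 42.9 ± 8.4 and 18.6 ± 2.0 for *FUM1* in the same order. The per-kilobase values of the fumarases were thus alike in standard ColxMN47 plants, within the spread between plants. The sources do not say how reads were given to alleles or to the paralogs. Values per kilobase therefore cannot establish that the transcripts of the fumarases were equally abundant.

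The genes that flank *FUM2* on chromosome 5 had ratios in Colxhalleri plants that differed less between treatments. *CLPC1*, a chloroplast chaperone gene 13978 bases upstream (start to start), had a mean log2 ratio of -0.37 ± 0.11 in cold and -0.55 ± 0.08 in dehydrated plants, against -0.48 ± 0.09 in standard plants. *NBP35*, the next gene downstream, which serves the assembly of cytosolic iron-sulfur clusters, had 0.16 ± 0.53 in cold and -0.56 ± 0.44 in dehydrated plants, against -0.14 ± 0.21 in standard plants (SD, n = 3 each). AT5G50990 favoured the second allele under all conditions, at 1.83 ± 0.43 in cold and 1.98 ± 1.12 in dehydrated plants, against 1.72 ± 0.26 in standard plants. The largest differences from standard among the 6 flanking genes measured were those of AT5G50915 and AT5G50970 under dehydration. AT5G50915 had -1.07 ± 0.66 in dehydrated and 0.21 ± 1.08 in standard plants, and AT5G50970 had 0.09 ± 0.15 in dehydrated and -1.0 ± 0.77 in standard plants. Levels of several flanking genes were low. In Colxhalleri plants the mean scaled sum was 8.5 to 13.7 for AT5G50930, 12.5 to 26.8 for AT5G50970 and 11.3 to 20.4 for AT5G50990 over the treatments. At such levels the added 1 per allele pulls ratios toward 0. The difference between *FUM2* and its flanking genes was not tested.

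**Figure D4:**
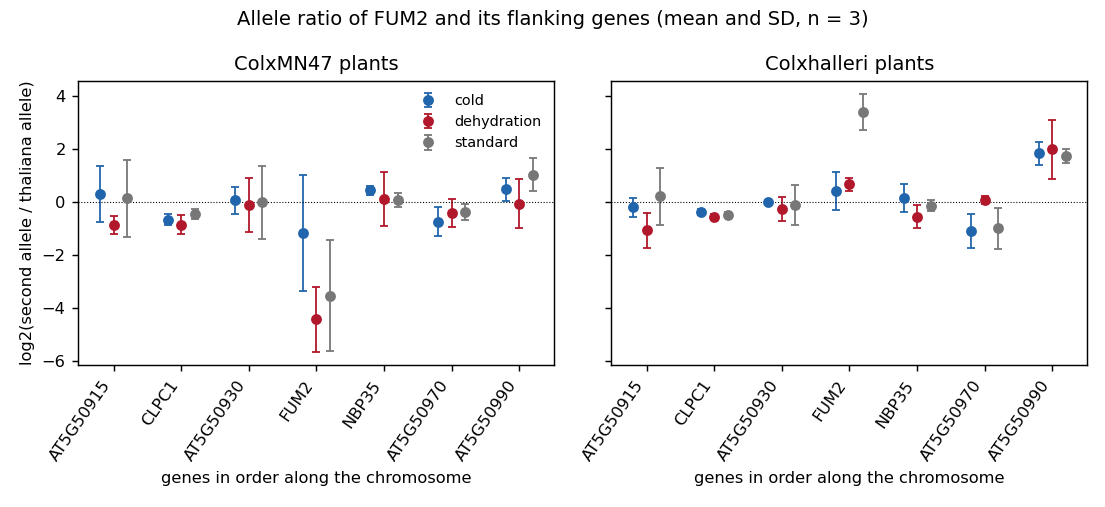
Mean log2 ratio of second over thaliana allele (y axis; whiskers SD of 3 plants) of *FUM2* and the 3 nearest measured genes on each side, in chromosomal order and not to scale, in ColxMN47 (left) and Colxhalleri (right) plants under cold (blue), dehydration (red) and standard (grey) conditions. In Colxhalleri plants *FUM2* stands at 3.39 under standard conditions and at 0.40 and 0.66 in cold and dehydration, while *CLPC1* stays between -0.55 and -0.37. AT5G50930, AT5G50970 and AT5G50990 had low levels, which pulls their ratios toward 0.

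Other genes of organic acid and carbohydrate metabolism were called for summed level about as often as all genes. Of the mitochondrial citric acid cycle, 27 of 36 listed genes were tested, of malate and fumarate metabolism outside the cycle 23 of 30, of organic acid transport 8 of 11, and of starch and sucrose synthesis 12 of 14. In limma none was called in cold ColxMN47 plants (0.875% of all 12921 genes called, 1958 with an unadjusted p below 0.05), dehydrated ColxMN47 plants (0.426%, 2382 genes) or cold Colxhalleri plants (0.751%, 1807 genes). In dehydrated Colxhalleri plants, 1 gene was lower and 2 were higher, beside 0.944% of all genes lower and 2.08% higher. At these background shares, so few calls say nothing particular about the lists.

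*DIC2*, a mitochondrial carrier of dicarboxylates such as malate, rose by 6.42 ± 1.04 on the log2 scale in dehydrated Colxhalleri plants (SE; limma, adjusted p = 0.00314). Its scaled sum was 498, 623 and 170 in dehydrated plants, against 5.78, 0 and 3.56 in standard plants. AT3G13930, an acetyltransferase subunit of the mitochondrial pyruvate dehydrogenase complex, fell by 5.41 ± 0.69 (SE; limma, adjusted p = 0.000551), with 0, 0 and 6.35 in dehydrated plants against 86.7, 312 and 90.9 in standard plants. Neither gene's groups overlapped. The cytosolic malate dehydrogenase gene *c-NAD-MDH1* was called higher by 3.19 ± 0.84 (SE; limma, adjusted p = 0.0417), with 2624, 2359 and 1495 in dehydrated plants against 147, 1513 and 51.7 in standard plants. Its groups overlapped, and its adjusted p ranged from 0.00465 to 0.223 over 13 other settings, with the call lost in 8.

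The medians of the lists lay on either side of that of all genes. In dehydrated Colxhalleri plants the median log2 difference was -0.44 for the citric acid cycle, -0.12 for malate and fumarate metabolism, 0.27 for organic acid transport and -0.26 for starch and sucrose synthesis, beside 0.02 over all genes. In dehydrated ColxMN47 plants it was 0.10, 0.17, -0.61 and 0.85 for these lists in the same order, beside 0.04 over all genes. In cold ColxMN47 plants it was -0.08, -0.44, -0.30 and 0.56, beside 0.06 over all genes, and in cold Colxhalleri plants -0.20, -0.35, 0.04 and -0.08, beside 0.03. Of starch and sucrose genes, 10 of 12 (cold) and 9 of 12 (dehydration) lay above 0 in ColxMN47 plants, with none called. Of citric acid cycle genes, 6 of 27 lay above 0 in cold Colxhalleri plants, and of malate and fumarate genes 8 of 23 in cold ColxMN47 plants, again with none called.

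**Figure D5:**
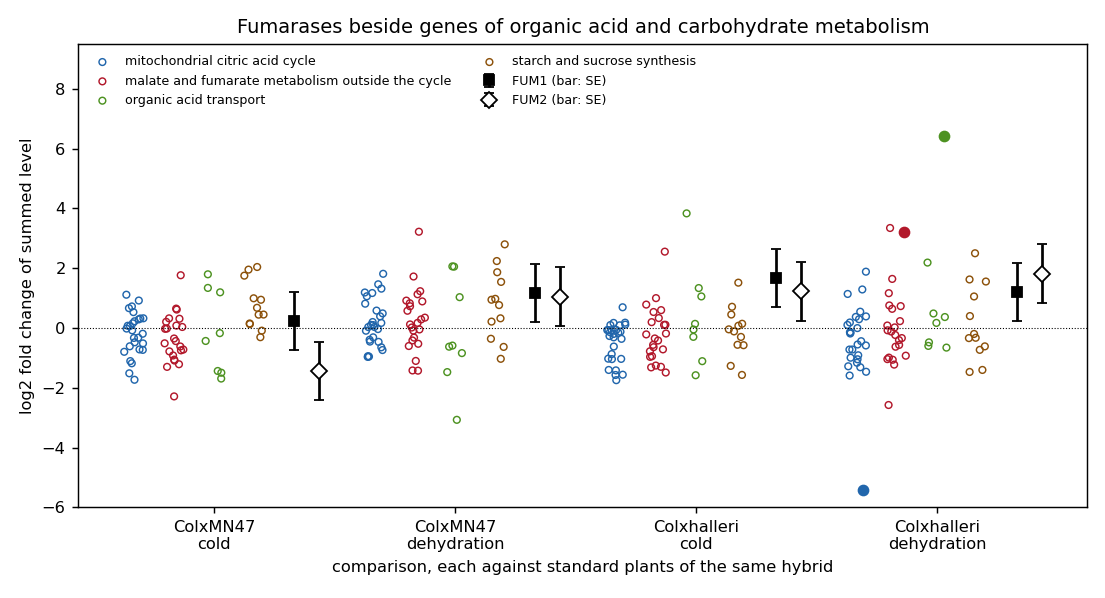
Log2 fold change of the summed level (y axis) against standard plants of the same hybrid, for the tested genes of 4 lists (circles, filled where the adjusted p is below 0.05) and for *FUM1* and *FUM2* (squares and diamonds with SE); genes are spread sideways for legibility. The filled circles, 1 each at 6.42, 3.19 and -5.41, all lie in dehydrated Colxhalleri plants.

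Allele bias in the same lists was near its share over all genes. Limma called no listed gene's ratio changed by either stress. Of all genes it called 0% under both stresses in ColxMN47 plants, and in Colxhalleri plants 0.978% in the cold (2037 genes with an unadjusted p below 0.05) and 2.05% under dehydration (2355 genes), so the absence of calls is no result about the lists. In ColxMN47 plants the second allele was called higher and lower in 5 and 7 of 27 citric acid cycle genes, 7 and 5 of 22 genes of malate and fumarate metabolism, 4 and 1 of 8 transport genes, and 3 and 4 of 12 starch and sucrose genes, beside 22.6% and 25.2% of all genes. In Colxhalleri plants these counts were 9 and 6, 10 and 5, 2 and 1, and 4 and 3, beside 34.9% and 25.5% of all genes. AT4G18440, an adenylosuccinate lyase gene whose enzyme releases fumarate in purine synthesis, had a bias of -5.06 ± 0.46 in ColxMN47 plants (SE; limma, adjusted p = 3.76e-05), past the -3.05 of *FUM2* and on the same side. *ADG1*, the small subunit of ADP-glucose pyrophosphorylase in starch synthesis, had -3.83 ± 0.36 in ColxMN47 plants (SE; limma, adjusted p = 4.71e-05). On the other side, AT1G25480, which encodes the malate channel ALMT4, had 2.41 ± 0.19 in ColxMN47 plants (SE; limma, adjusted p = 1.69e-05). *NADP-ME1*, a malic enzyme that turns malate into pyruvate, had 3.29 ± 0.19 in Colxhalleri plants (SE; limma, adjusted p = 4.85e-06). The genes with the smallest p in the other lists had smaller biases. These were AT2G20420 of the citric acid cycle at -1.66 in ColxMN47 plants. In Colxhalleri plants they were *IAR4* of the citric acid cycle at -1.02, *UCP5* of transport at 1.79 and *SPS2F* of sucrose synthesis at 1.92.

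The summed levels of the fumarases had a Pearson r of 0.01 over the 18 plants on the log2 scale. That value includes standard plant 3 of Colxhalleri, with scaled sums of 0 for *FUM1* and 109.6 for *FUM2*. It also includes cold plant 1 of ColxMN47, with 1.02 for *FUM2*, and r without these plants was not computed. Of 5535 other genes with a mean of at least 50, those whose summed level was most like that of *FUM2* were AT5G45490 (r = 0.851) and *LEA14* (r = 0.778), a gene of the late embryogenesis abundant class. *LEA14* averaged 159 ± 44.7 in cold and 305 ± 114 in dehydrated Colxhalleri plants, against 117 ± 9.6 in standard ones (scaled sums, SD, n = 3 each). AT5G45490 averaged 87.6 ± 9.2 in cold and 148 ± 18.7 in dehydrated Colxhalleri plants, against 110 ± 45.3 in standard ones. Both genes were picked for their likeness over these same plants, so they are no separate evidence. The genes most like *FUM1* in summed level were AT1G19110 (r = 0.893) and the chloroplast RNA-binding gene *CRB* (r = 0.889). Standard plant 3 of Colxhalleri, with *FUM1* at 0, weighs heavily in both values. In its group AT1G19110 averaged 29.7 ± 26.2 and *CRB* 1265 ± 1104 (scaled sums, SD, n = 3 each). The likeness without that plant was not computed, so shared expression with *FUM1* is not shown. These correlations are descriptions over 18 plants that share libraries, hybrids and treatments.

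The genes whose allele ratio was most like that of *FUM2* over the 9 Colxhalleri plants, of 5564, were *OLI2* (r = 0.974), AT1G01540 (r = 0.968), *COR47* (r = 0.955), *ARR4* (r = 0.951) and *SEC61 BETA* (r = 0.948). *COR47* encodes a dehydrin known for its induction by cold and drought. Its log2 ratio was 0.36 ± 0.26 in cold and 0.68 ± 0.13 in dehydrated Colxhalleri plants, against 1.59 ± 0.10 in standard ones (SD, n = 3 each). The difference lies on the same side as that of *FUM2* because *COR47* was picked for its likeness over these same plants, so it is no separate evidence. Over the 9 ColxMN47 plants the closest of 5457 genes to *FUM2* was *pEARLI4* (r = 0.952). The allele ratios of *FUM1* and *FUM2* had r = -0.22 in ColxMN47 and r = 0.03 in Colxhalleri plants.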

How the data were processed

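Libraries were made with TRIzol and the TruSeq RNA v2 kit, which does not mark strand, per the labels' protocols. Each file the authors deposited holds, per the file headers, gene values of the thaliana allele and of a second allele. This deposited score has 1 added to each allele. In 5 libraries the values imply reads multiplied by a factor and rounded. How the other libraries were brought to a like total cannot be read from the values. TopHat2, SAMtools, DESeq2 and TAIR10 are named, per the submitters' processing notes, and no source used here says how alleles were told apart. Of 16419 genes, 16404 were matched to TAIR10.1 for symbols and coordinates.

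Because scores are not counts, limma 3.58.1 (R 4.3.3, eBayes with trend and robust) was used in place of a count test. Summed levels were log2 of the sum, less the added 1 per allele and scaled by trimmed mean of M values factors (30% and 5% trimmed), plus 2. Fold changes on that scale understate the change of low genes. All 18 libraries entered 1 fit, and genes with at least 10 in 3 libraries were tested. Allele ratios, log2 of second over thaliana allele as deposited, were fitted per hybrid where the mean was 10 or more, and bias is the mean over treatments. P values were 2-sided, adjusted by Benjamini-Hochberg over all genes and called below 0.05. They measure the spread between plants labelled biological replicates. The code was tested on simulated data.

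The members, lists and rule were chosen with earlier results of these data known. Named were the fumarases, genes from among the 5 most correlated with each, and the listed genes called for summed level. For allele bias, the gene with the smallest p in each list and hybrid was named. Genes flanking *FUM2* were added for position. Alternatives were scaling as deposited, no filter, a mean of at least 50, 10 or 1 added, 0.5 per allele and centred ratios. Others were a fit of the compared groups alone, the replicate number as a block, and leaving out the 3 unlike libraries together. Libraries were also left out in turn, those of the compared groups for summed levels and those of the hybrid for ratios. Python 3.11.15, Biopython 1.88 and matplotlib 3.10.9 were used.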

Additional observations from a re-analysis of the deposited data

Results flagged for a closer look

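The mean cold difference of the *FUM2* allele ratio had opposite signs in the hybrids, resting on low values in ColxMN47 plants. All 3 cold Colxhalleri plants lay below the mean of their standard plants and all 3 cold ColxMN47 plants lay above the mean of theirs. The mean differences were -2.98 in Colxhalleri plants and 2.37 in ColxMN47 plants, so that Colxhalleri minus ColxMN47 was -5.35 on the log2 scale. The difference between the hybrids was not tested, because *FUM2* was chosen for its Colxhalleri values. In ColxMN47 plants the cold and standard groups overlapped and 1 cold plant had a summed *FUM2* value of 1. Cold ColxMN47 plants 1 and 3 had 0 second-allele reads beside 1 and 10 thaliana reads. Their ratios of -1.0 and -3.46 were thus the lowest that the added 1 per allele allows. Both were 100% thaliana, against 73.5, 100 and 96.2% in the standard plants. Only cold plant 2 had the second allele higher, so a shift shared by the 3 cold plants is not shown. Leaving out 1 library moved the ColxMN47 difference between 1.31 (without cold plant 2) and 3.51 (without cold plant 3).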

How the results depend on the processing

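Depth is known only in part, and 5 dehydrated libraries were shallower, so low *FUM2* and *FUM1* values limit every ratio. The *FUM2* bias in ColxMN47 plants kept its call under every alternative run, and no alternative called a stress change of either fumarase that was tested. Replicate numbers did not pair the plants (correlations of same-numbered deviations -0.0699 to 0.0283 in ColxMN47 and -0.106 to 0.173 in Colxhalleri), so the replicate block is given here only. Genes called with the replicate block numbered 63 and 13 for summed levels in cold and dehydrated ColxMN47 plants, and 9 and 36 for ratios in cold and dehydrated Colxhalleri plants. With only the compared groups fitted, summed levels gave 14 and 0 calls in ColxMN47 and 2 and 125 in Colxhalleri plants (cold and dehydration). Without the 3 unlike libraries, summed levels gave 70 and 19 calls in ColxMN47 plants and 179 in cold Colxhalleri plants, and ratios gave 3 in cold ColxMN47 plants and 10 and 90 in Colxhalleri plants. For those ratios the *FUM2* dehydration difference in ColxMN47 plants was 0.61, a reversal. A mean of at least 50 gave 12 and 3 ratio calls in ColxMN47 plants, 260 in cold Colxhalleri plants, and bias calls of 2822 in ColxMN47 and 3678 in Colxhalleri plants, where fewer genes were tested. No filter gave 60 and 128 ratio calls in Colxhalleri plants, centring gave 2 in cold ColxMN47 plants, and 0.5 per allele gave 1 in dehydrated ColxMN47 plants. Leaving out each library of the compared groups in turn gave 14 to 69 and 0 to 325 calls of summed level in ColxMN47 plants (cold and dehydration). In Colxhalleri plants it gave 24 to 443 and 104 to 931. Leaving out each library of the hybrid in turn gave 0 to 3 and 0 to 7 ratio calls in ColxMN47 plants. In Colxhalleri plants it gave 2 to 289 and 23 to 476 ratio calls. In the same runs *FUM1* summed levels ranged from -0.023 to 0.48 in cold ColxMN47 plants, from -0.17 to 2.77 in cold Colxhalleri plants and from -0.62 to 2.31 in dehydrated Colxhalleri plants. The *FUM1* ratio difference ranged from -0.14 to 0.52 (cold) and -0.16 to 0.85 (dehydration) in ColxMN47 plants, its bias from -0.11 to 0.23 in ColxMN47 and 0.11 to 0.29 in Colxhalleri plants, and the *FUM2* dehydration ratio difference in ColxMN47 plants from -1.89 to 0.20. The *FUM2* ratio difference in Colxhalleri plants stayed between -3.37 and -2.64 (cold) and between -3.06 and -2.38 (dehydration). *FUM2* was chosen for these values, so their steadiness is no separate evidence. The *FUM2* summed difference ranged from -2.73 to -0.28 (cold) and 0.21 to 2.15 (dehydration) in ColxMN47 plants, and from 0.67 to 1.71 and 1.26 to 2.19 in Colxhalleri plants. The cause of these shifts was not tested. The bias of *FUM1* in ColxMN47 plants was -0.09 without cold plant 3.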
